A study of Mus musculus with 4 samples.

Results

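DNase-seq sequences the ends of DNA cut by the nuclease DNase I in nuclei, so that open chromatin shows up as places dense in cuts. The RUNX transcription factors and their partner were followed through deposited DNase-seq peaks of mouse acute myeloid leukaemia cells. The members were the 4 genes Runx1, Runx2, Runx3 and Cbfb, of 21755 protein-coding genes on the autosomes and X, chosen by name. Each locus was taken as the GENCODE M21 gene body with 50 kb on either side, on mm10. The 4 loci held 293 of 236215 peaks of biological replicate 1 and 82 of 67438 peaks of biological replicate 2.

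All 4 libraries came from cells of the strain C57BL/6J that the labels call acute myeloid leukemia and describe as differentiated in vitro, with age unknown and sex not collected. Each biological replicate had 2 technical libraries, pooled into 1 peak list and 1 hotspot list before deposit. The labels named no driver mutation, treatment, time point or control. The replicates carry separate sample codes but 1 donor code, so they are not known to come from separate animals. With 1 list per replicate there is no spread over samples, so values are given for both lists and no test was run. The depth of either replicate is unknown from the files. The peak score is a whole number, of undefined scale, given to windows of 150 bp. Its median was 74.0 in replicate 1 and 35.0 in replicate 2, so scores were read by their percentile, the percent of peaks in the same list with a lower score, peaks of equal score being placed at their midpoint. Promoters of the myeloid genes Ptprc, Spi1, Cebpa, Mpo, Csf1r, Csf3r, Itgam and Kit were open in both lists, 8 of 9 myeloid markers, and that of Elane in replicate 1 alone. None of 3 T cell, 2 B cell, 3 osteoblast and 2 hepatocyte marker promoters was open in both lists.

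RUNX proteins bind DNA through a runt domain, and the core-binding factor beta subunit made by Cbfb binds no DNA itself but strengthens their binding and stabilises them. Runx1 is needed for blood stem cells to form and is among the genes most often altered in acute myeloid leukaemia, as is CBFB in human inv(16) leukaemia. Runx2 directs bone formation, and Runx3 acts in T cells, natural killer cells and sensory neurons. In mammals each RUNX gene is read from a distal promoter, P1, and a proximal promoter, P2, which give proteins with different first residues.

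A short stretch is shown first because it was found at the distal promoter of all 3 RUNX genes. Capitals mark the RUNX letters, TGTGGT or its reverse complement ACCACA, and the bases run 5′ to 3′ along the gene. All sequences are from the RefSeq genome of the mm10 build, GRCm38.p6.
Runx1 distal, chr16:92826028-92826051, minus strand: aaacaACCACAgaACCACAagttg
Runx2 distal, chr17:44814586-44814609, minus strand: aaacaACCACAgaACCACAagtgc
Runx3 distal, chr4:135120506-135120529, plus strand: cctcaACCACAgaACCACAaggcc
In each gene, ACCACA stood in 2 copies whose first bases lay 8 bases apart, with the same bases ga between them. A pair of RUNX matches (TGTGGT or TGCGGT, either strand) at that spacing on 1 strand were present in 9 of 32851 windows of the RefSeq promoter table, or 0.0274%, and 3 of the 9 are those shown. Each window ran from 250 bases before to 50 after a start. The pair began at base 29 after the RefSeq start of Runx1, base 24 after that of Runx2 and base 134 before that of Runx3. At Runx1 and Runx3 the whole pair lay inside a peak in both lists. At Runx2 it lay inside no peak of either list. The pair was noticed after the sequences were read, and a match of letters is a description, not a bound site.

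At Runx1 both promoters held peaks in both lists. Within 1 kb of the starts, the strongest distal peak ranked above the strongest proximal one in each list. For scale, the strongest shared promoter peak of a protein-coding gene had a median mean rank over both lists of 92.8, and the Runx1 distal and proximal promoters stood at 94.1 and 89.1. Runx1 is ENSMUSG00000022952.17, at chr16:92601466-92826149 on the minus strand, and its proximal start lies 128.8 kb past the distal start. The strongest distal peak, chr16:92825956-92826105, scored 150 in replicate 1 and its counterpart 73 in replicate 2. These were the 99.6th and 88.6th percentiles of their lists. The strongest proximal peak, chr16:92697316-92697465, scored 145 in replicate 1 and 61 in replicate 2, the 96.1st and 82.2nd percentiles. The distal minus proximal rank was 3.53 points in replicate 1 and 6.42 in replicate 2, a mean of 4.97 ± 2.04 (SD over the 2 lists). By the summed score of every peak within 1 kb of a start, the order turned and the mean difference was -3.87 points. A window of 2.5 kb also takes in the site chr16:92698716-92698865 beside the proximal promoter. That site scored 74 in replicate 2, the 89.1st percentile, so with this window the order turned in replicate 2. The other distal peaks, with scores of 120, 101 and 78, and 2 other proximal ones, with 126 and 85, stood in replicate 1 alone. A second proximal peak was in both lists, with scores of 132 in replicate 1 and 36 in replicate 2.

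Runx3 showed the same order. Runx3, ENSMUSG00000070691.10, lies at chr4:135120652-135177990 on the plus strand, with its starts 31.8 kb apart. Its distal peak, chr4:135120416-135120565, held the same place in both lists and scored 147 in replicate 1 and 63 in replicate 2, the 97.4th and 83.5th percentiles. The strongest proximal peak, chr4:135152376-135152525, scored 141 in replicate 1 and 54 in replicate 2, the 93.9th and 76.7th percentiles. The distal minus proximal rank was 3.50 points in replicate 1 and 6.75 in replicate 2, a mean of 5.12 ± 2.30 (SD over the 2 lists). A second proximal peak, with scores of 135 and 44 in replicates 1 and 2, lay just past it, and by summed score the order turned here too, to -12.1 points. The mean ranks of the distal and proximal promoters, 90.4 and 85.3, were below the median of 92.8 over genes. An annotated non-coding start, Gm16225, lies within 1 kb of the distal peak.

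At Runx2 the order was the other way round. Runx2, ENSMUSG00000039153.16, lies at chr17:44495987-44814797 on the minus strand, with 78.1 kb between its starts. Its distal promoter held 1 peak in replicate 1, chr17:44814676-44814825, with a score of 89 (63.1st percentile), and none in replicate 2. The strongest proximal peak, chr17:44736356-44736505, scored 130 in replicate 1 and 48 in replicate 2, the 88.5th and 70.6th percentiles. With the missing peak set to 0, the distal minus proximal rank was -25.4 points in replicate 1 and -70.6 in replicate 2. Around the proximal start stood 4 peaks in replicate 1 and 6 in replicate 2, of which 3 in replicate 2, with scores of 29, 27 and 34, had no counterpart. The mean rank of the proximal promoter, 79.5, was below the median of 92.8 over genes. The antisense gene Runx2os1 starts within 1 kb of the strongest of them, and DNase-seq does not tell which gene an open site serves.

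Cbfb, ENSMUSG00000031885.14, has 1 promoter, at the start of chr8:105170674-105217989 on the plus strand. Its strongest peak, chr8:105170556-105170705, scored 149 in replicate 1 and 95 in replicate 2, the 98.8th and 97.5th percentiles. A second peak, chr8:105171436-105171585, scored 134 in replicate 1 and 44 in replicate 2. In replicate 2 no promoter peak of the RUNX genes ranked as high as that of Cbfb. Its mean rank was 98.2, above the median of 92.8 over genes.

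**Figure D1:**
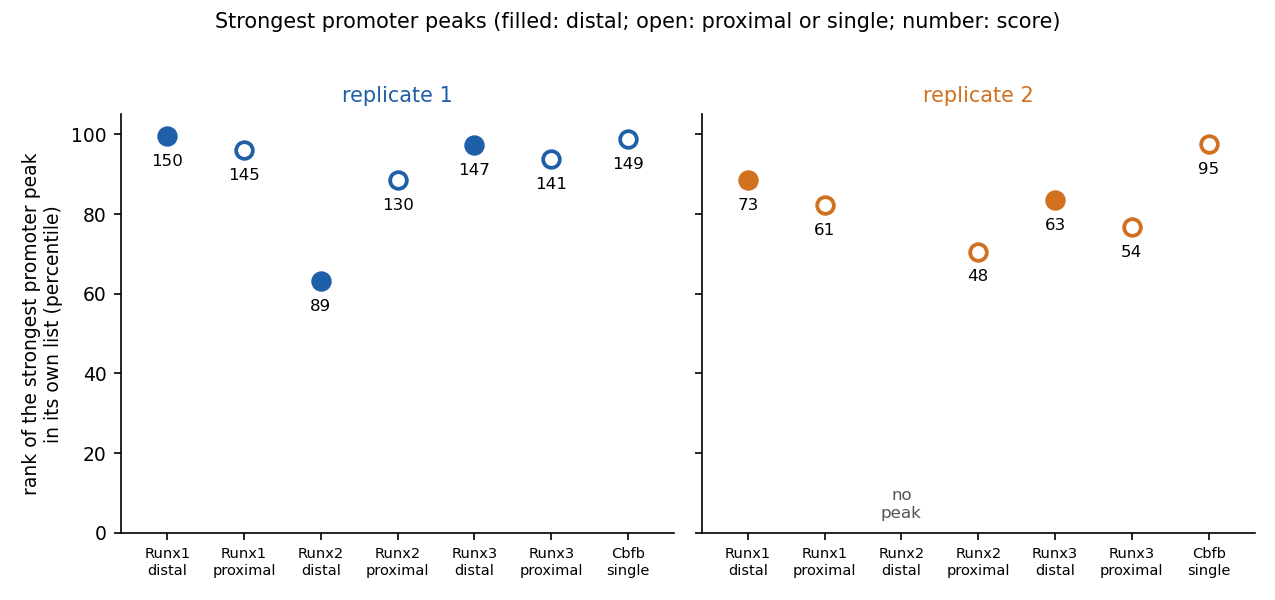
Percentile of the strongest peak within 1 kb of each promoter's starts (y axis) in replicate 1 (left) and replicate 2 (right); the number under each point is its score. The distal promoters of Runx1 and Runx3 sit above their proximal promoters in both lists, and the Runx2 distal promoter has a score of 89 in replicate 1 and no peak in replicate 2.

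Hotspots, the wider regions of raised cutting that the deposited lists give with a −log10 q capped at 100, overlapped every promoter peak named above, in replicate 2 some of them only in part. The hotspot over the Runx1 distal promoter was 2781 bp wide in replicate 1 and 719 bp in replicate 2, and that over the proximal promoter 2555 and 308 bp. At Runx3 the distal hotspot was 932 bp in replicate 1 and 427 bp in replicate 2, and the proximal one 2078 and 560 bp. In replicate 2 the −log10 q stood at the ceiling of 100 over the distal promoters of Runx1 and Runx3 and the Cbfb promoter. Over the proximal promoters of Runx1, Runx2 and Runx3 in the same list it was 3.75, 4.66 and 5.70. In replicate 1 all of these promoters, the Runx2 distal one included, stood at the ceiling. So did 53.0% of all hotspots of replicate 1 and 41.5% of those of replicate 2. No hotspot over a peak of the 4 loci had a value between 6.00 and 100, so the step to the ceiling measures no distance.

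The distal and proximal promoters also differed in base composition, which the choice of genes did not use. A CpG is a C followed by a G, a pair that is rare in most of the genome and kept in CpG islands. Within 500 bp of the outermost start, the observed over expected CpG ratio was 0.310 at the distal and 0.865 at the proximal promoter of Runx1. The ratios were 0.164 and 0.909 at the distal and proximal promoters of Runx2, 0.361 and 0.949 at those of Runx3, and 0.928 at Cbfb. The median over all protein-coding genes was 0.558, with quartiles of 0.221 and 0.769, so each proximal promoter and that of Cbfb lay above the upper quartile. The 200 bases before both Runx1 and both Runx3 starts are shown to make this visible, with every CpG in capitals.
Runx1 distal, chr16:92826150-92826349, minus strand: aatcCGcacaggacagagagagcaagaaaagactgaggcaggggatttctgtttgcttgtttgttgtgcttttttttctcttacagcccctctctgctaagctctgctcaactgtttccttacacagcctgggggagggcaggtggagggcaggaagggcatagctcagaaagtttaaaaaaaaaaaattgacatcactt
Runx1 proximal, chr16:92697329-92697528, minus strand: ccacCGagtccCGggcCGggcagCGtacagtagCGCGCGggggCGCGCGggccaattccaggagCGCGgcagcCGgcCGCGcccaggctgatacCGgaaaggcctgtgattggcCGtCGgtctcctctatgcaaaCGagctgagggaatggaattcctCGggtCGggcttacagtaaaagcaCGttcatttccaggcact
Runx3 distal, chr4:135120452-135120651, plus strand: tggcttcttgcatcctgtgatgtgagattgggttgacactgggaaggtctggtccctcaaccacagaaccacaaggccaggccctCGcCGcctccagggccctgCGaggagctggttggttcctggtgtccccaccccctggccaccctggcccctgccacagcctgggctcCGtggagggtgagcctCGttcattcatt
Runx3 proximal, chr4:135152296-135152495, plus strand: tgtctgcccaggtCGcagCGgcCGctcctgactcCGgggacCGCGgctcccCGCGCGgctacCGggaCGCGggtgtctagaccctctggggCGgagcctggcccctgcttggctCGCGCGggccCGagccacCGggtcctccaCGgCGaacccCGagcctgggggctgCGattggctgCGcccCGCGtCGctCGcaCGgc
These stretches hold 1 CpG at the Runx1 distal start, 22 at the Runx1 proximal start, 5 at the Runx3 distal start and 28 at the Runx3 proximal start. The same stretches of Runx2, not shown, hold 0 at the distal and 4 at the proximal start. At this width the Runx2 contrast was therefore small. Across the RefSeq promoter windows, which cover all 4 members except the Runx2 proximal start, RUNX letters were present 2 times at the Runx1 distal, 4 times at the Runx2 distal and 2 times at the Runx3 distal promoter. They were not in the windows of the Runx1 proximal, Runx3 proximal and Cbfb promoters. Of all 32851 windows, 22.4% held at least 1 RUNX match and 2.86% at least 2. The Cbfb window held 2 matches to the ETS letters GGAAGT, which 23.8% of all windows held.

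Outside the promoters, the Runx1 locus was filled with sites along its length. It held 93 peaks in replicate 1 and 25 in replicate 2, and 24 of the 93 overlapped a replicate 2 peak by at least 1 bp, here called shared. That was 25.8% of its replicate 1 peaks, against 26.1% of all replicate 1 peaks, so the share itself was that of the list. No other protein-coding gene lies in this 324.7 kb window. Of the 24 shared peaks, 3 were at promoters, 13 in introns, 8 between genes and 0 in exons of the main transcript. The long intron 2 of the main distal transcript, 129.9 kb between the exon of the distal coding start and that of the proximal one, held 38 replicate 1 peaks outside promoters, 8 of them shared.

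A pair of neighbouring sites in that intron lay where the known haematopoietic enhancer called +23 is placed, 22 to 26 kb past the distal coding start. This enhancer drives reporter genes in emerging blood stem cells of mouse embryos. The peak chr16:92801716-92801865, 23.9 kb past the coding start, scored 148 in replicate 1 and 69 in replicate 2, the 98.1st and 86.7th percentiles. The peak chr16:92800956-92801105, 24.6 kb past it, scored 143 in replicate 1 and 60 in replicate 2, the 94.9th and 81.5th percentiles. Both lay in 1 hotspot of 1645 bp in replicate 1 and in separate hotspots of 384 and 396 bp in replicate 2. The other 3 peaks in the same stretch, with scores of 65, 103 and 83, were in replicate 1 alone. The sequences of both are shown on the strand of the gene, with an upstream site that also held RUNX letters. Capitals mark RUNX letters (TGCGGT, which reads ACCGCA on the other strand, included), ETS letters (GGAAGT), the letters that GATA factors bind (AGATAA or TGATAA), C/EBP letters (TTNNGCAA) and the core letters of CTCF. The CTCF core was searched in the form AGGGGGC, in the form AGAGGGC, in the form AGATGGC and in the form AGGTGGC.
Runx1 intron, 23.9 kb, chr16:92801716-92801865, minus strand: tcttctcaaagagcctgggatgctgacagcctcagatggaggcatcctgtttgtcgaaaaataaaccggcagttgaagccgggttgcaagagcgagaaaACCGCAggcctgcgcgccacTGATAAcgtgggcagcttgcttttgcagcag
Runx1 intron, 24.6 kb, chr16:92800956-92801105, minus strand: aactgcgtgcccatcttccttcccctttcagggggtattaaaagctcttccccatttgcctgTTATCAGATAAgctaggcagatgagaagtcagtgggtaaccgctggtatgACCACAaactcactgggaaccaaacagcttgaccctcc
Runx1 upstream, chr16:92867416-92867565, minus strand: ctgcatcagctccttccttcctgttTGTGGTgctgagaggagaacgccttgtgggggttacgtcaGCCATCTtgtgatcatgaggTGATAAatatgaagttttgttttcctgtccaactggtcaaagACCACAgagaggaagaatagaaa
Each of the 3 holds RUNX and GATA letters. The upstream one, 41.3 kb upstream of the distal start, holds RUNX letters at both ends and scored 143 in replicate 1 and 57 in replicate 2.

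The highest Runx1 site outside promoters was chr16:92715616-92715765 in the same intron, 110.0 kb past the distal coding start, with scores of 149 in replicate 1 and 77 in replicate 2. It holds 1 GATA match, written TTATCT on this strand, and no RUNX letters. A neighbour in the same replicate 1 hotspot, chr16:92714936-92715085, was the highest replicate 1 peak of the locus with no counterpart, at a score of 134. The site chr16:92698716-92698865, 127.4 kb past the distal start and in the same replicate 1 hotspot as the proximal promoter, scored 135 in replicate 1 and 74 in replicate 2. Near the other end of the gene, in intron 6, 2 adjoining peaks at chr16:92620896-92621045 and chr16:92621056-92621205 scored 145 and 142 in replicate 1, with 55 and 53 in replicate 2. A further peak beside them, with a score of 39, was the only peak of the locus found in replicate 2 alone. Downstream of the gene, 5 of 11 replicate 1 peaks were shared.

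**Figure D2:**
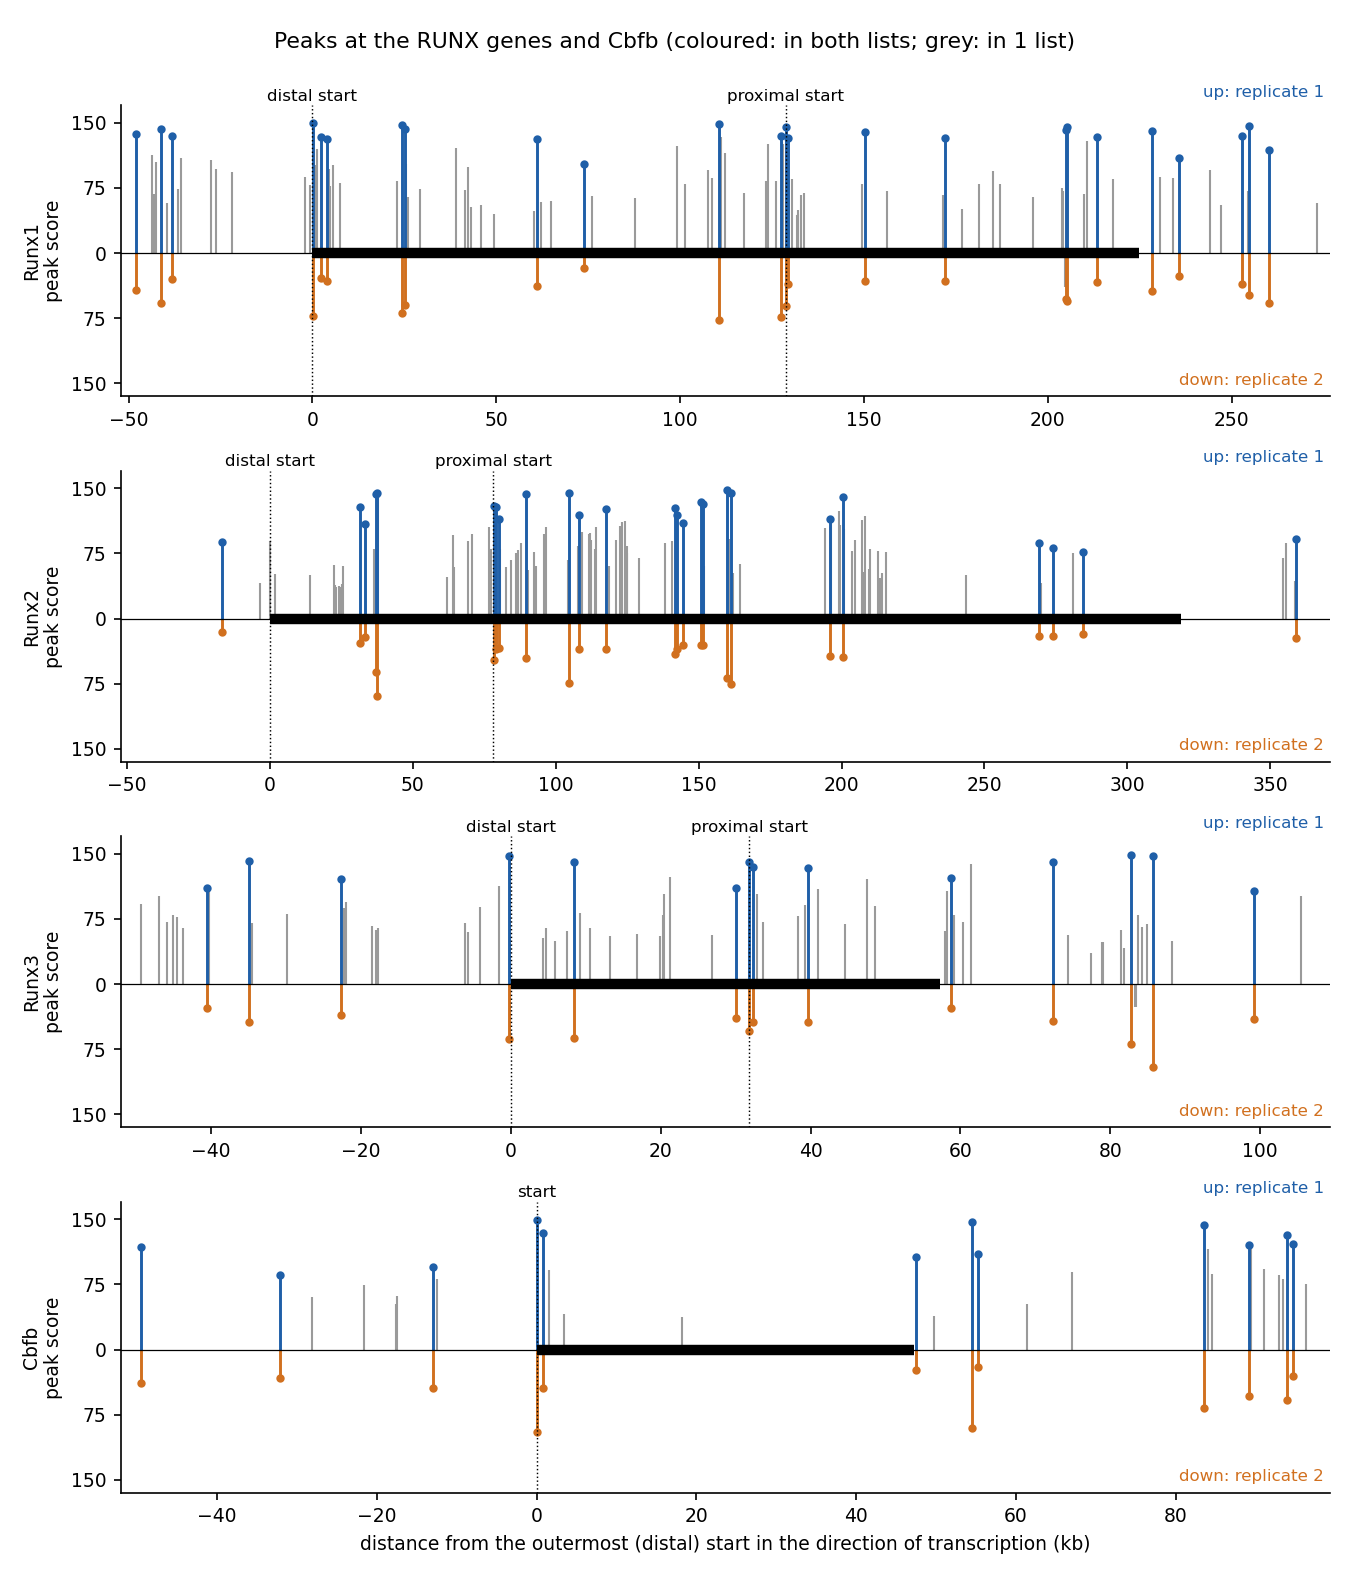
Peak score (y axis, replicate 1 up and replicate 2 down) against the distance in kb from the outermost start in the direction of transcription (x axis) for the 4 genes, with the gene body as a black bar. Coloured stems are peaks found in both lists and grey stems peaks found in 1; shared sites run through and beyond Runx1, gather past the proximal start of Runx2, reach a replicate 2 score of 95 downstream of Runx3 and are missing inside Cbfb beyond its promoter.

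At Runx2 the sites lay mostly past the proximal start. The locus held 101 peaks in replicate 1 and 29 in replicate 2, and 25 were shared, or 24.8%, against 26.1% of the list. Of the 20 shared peaks outside promoters, 16 lay between the proximal start and the gene end. That is the longest stretch, 240.7 kb of the 418.8 kb window. The 78.1 kb between the 2 starts held 2, and the 50 kb upstream and the 50 kb downstream held 1 each. Intron 4 of the main distal transcript, 58.5 kb long, held 27 replicate 1 peaks and 8 shared ones. The 3 highest sites ranked close to those of Runx1. In intron 5, chr17:44653236-44653385 scored 145 in replicate 1 and 75 in replicate 2, and chr17:44654616-44654765 scored 148 in replicate 1 and 68 in replicate 2. In intron 4, chr17:44709996-44710145 scored 144 in replicate 1 and 74 in replicate 2, within 1 kb of a start of the antisense gene Runx2os2. The next were chr17:44725216-44725365 in intron 2, with scores of 143 in replicate 1 and 46 in replicate 2, and chr17:44614136-44614285 in intron 6, with 140 in replicate 1 and 44 in replicate 2. The sites chr17:44653236-44653385 and chr17:44709996-44710145 are shown as the highest of introns 5 and 4, and both carry C/EBP letters.
Runx2 intron 5, chr17:44653236-44653385, minus strand: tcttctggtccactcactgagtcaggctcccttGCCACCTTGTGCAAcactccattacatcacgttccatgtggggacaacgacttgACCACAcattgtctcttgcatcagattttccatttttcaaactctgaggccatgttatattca
Runx2 intron 4, chr17:44709996-44710145, minus strand: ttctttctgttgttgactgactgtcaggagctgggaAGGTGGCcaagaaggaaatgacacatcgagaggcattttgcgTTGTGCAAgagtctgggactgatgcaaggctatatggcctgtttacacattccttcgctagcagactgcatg
In all, 6 of the 20 shared Runx2 sites outside promoters held C/EBP letters, against 12.7% of all shared peaks outside promoters. The counts at the other loci were 1 of 21 at Runx1, 0 of 11 at Runx3 and 0 of 4 at Cbfb. Over all replicate 1 peaks outside promoters at Runx2, 12 of 91 held these letters, against 12% of the list. The strongest peak of the window in replicate 2 belonged to neither Runx2 promoter. It lay at the promoter of Supt3, a subunit gene of the SAGA coactivator complex that starts inside intron 1 of Runx2, and scored 144 in replicate 1 and 89 in replicate 2. A second one there scored 143 in replicate 1 and 61 in replicate 2. Another Supt3 promoter peak, with a score of 140, was the highest replicate 1 peak of the window without a counterpart.

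At Runx3 the strongest site was outside the gene. Chr4:135206296-135206445, between genes 28.4 kb past the gene end, scored 147 in replicate 1 and 95 in replicate 2, the 97.4th and 97.5th percentiles. A neighbour, chr4:135203376-135203525, scored 149 in replicate 1 and 69 in replicate 2. In replicate 2 both of these scored higher than either Runx3 promoter. The first, shown here, carries GATA letters and CTCF core letters.
Runx3 downstream, chr4:135206296-135206445, plus strand: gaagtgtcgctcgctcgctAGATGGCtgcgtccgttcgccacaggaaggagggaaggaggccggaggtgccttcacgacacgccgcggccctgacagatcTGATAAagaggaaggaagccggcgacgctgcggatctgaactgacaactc
The locus held 69 peaks in replicate 1 and 16 in replicate 2, with 14 shared, or 20.3%, against 26.1% of the list. Of its 11 shared peaks outside promoters, 3 lay in Runx3 introns, 7 between genes and 1 in the body of Clic4, a chloride channel gene. The highest peak without a counterpart was chr4:135181936-135182085 in replicate 1, with a score of 138, and chr4:135203936-135204085 in replicate 2, with 27. The highest intronic site, chr4:135128936-135129085 in intron 1, scored 141 in replicate 1 and 62 in replicate 2. The next 2 sites between genes, 35.0 kb upstream and 72.4 kb downstream of the distal start, both held RUNX letters and scored 142 and 141 in replicate 1, with 44 and 42 in replicate 2.

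Cbfb showed few sites of its own beyond its promoter. The locus held 30 peaks in replicate 1 and 12 in replicate 2. All 12 shared peaks made 40.0% of the replicate 1 peaks (exact 95% binomial interval 22.7 to 59.4), against 26.1% of the whole list. The interval contained the share of the list. Of these 12, 2 were at the Cbfb promoter and 6 at promoters of the neighbours D230025D16Rik, B3gnt9, Tradd and Fbxl8. Outside promoters 4 of 15 replicate 1 peaks were shared, against 22% of such peaks over the whole list. The introns of Cbfb held 2 peaks in replicate 1 and no shared one. The 4 shared peaks outside promoters had mean ranks over both lists from 50.5 to 70.0, with scores of 118, 95, 86 and 107 in replicate 1 and 39, 44, 33 and 24 in replicate 2. CTCF core letters were in 3 of the 4, against 32.2% of all shared peaks outside promoters. The farthest upstream one, 49.5 kb before the start, holds them 2 times beside RUNX letters.
Cbfb upstream, chr8:105121096-105121245, plus strand: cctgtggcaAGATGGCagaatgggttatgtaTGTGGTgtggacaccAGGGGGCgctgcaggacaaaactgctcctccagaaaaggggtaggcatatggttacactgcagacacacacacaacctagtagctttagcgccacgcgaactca
CTCF is a zinc finger protein known for holding chromatin loops. Its core letters were searched after the Cbfb sequences had been read, so their count there supports nothing. The highest replicate 1 peak of the window without a counterpart, chr8:105259996-105260145 at the Tradd promoter, scored 118.

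Over the 4 loci together, 75 of 293 replicate 1 peaks were shared, 25.6% (exact 95% binomial interval 20.7 to 31.0, counting error only), against 26.1% of the whole list. Outside promoters 56 of 254 were shared, and both this share and that of the whole list (42117 of 191735) came to 22%. Of the 82 replicate 2 peaks, all but 6 had a counterpart, near the share of all replicate 2 peaks, 91.9%. With the replicate 1 list held to the length of the replicate 2 list by score, 61.3% of the locus peaks were shared, against 70.0% of that list. At each locus the shared peaks were the higher ones in replicate 1. Their median score was 136.0 against 80.0 for peaks in replicate 1 alone at Runx1, 127.0 against 78.5 at Runx2, 138.0 against 71.0 at Runx3 and 120.5 against 78.0 at Cbfb. The ranges overlapped at all 4.

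**Figure D3:**
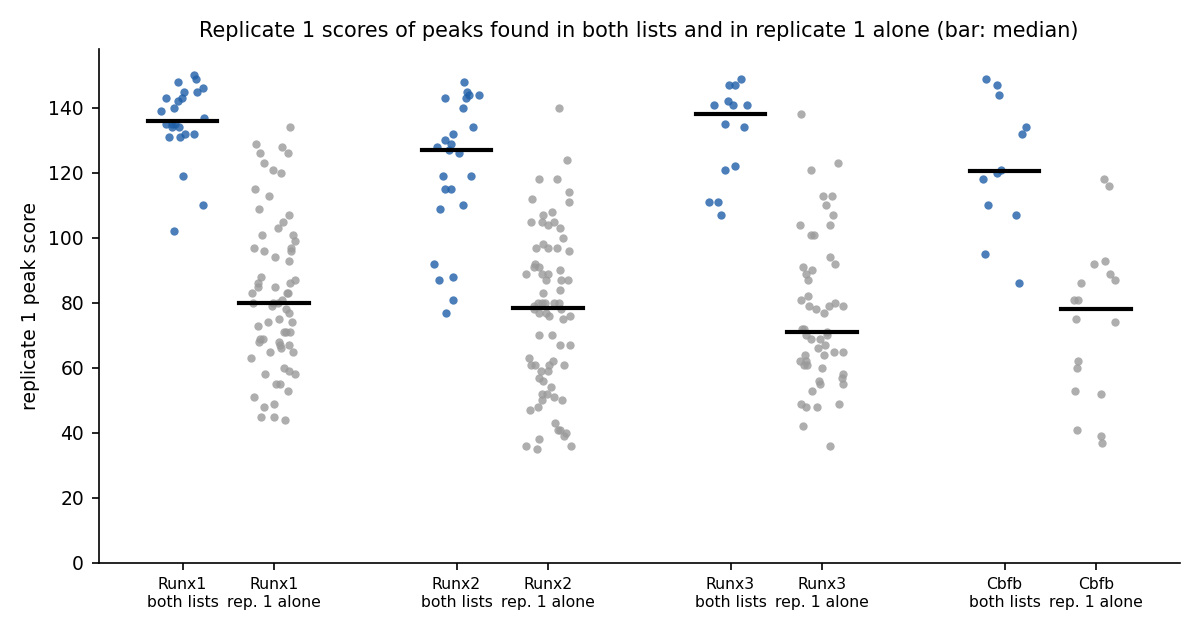
Replicate 1 score (y axis) of every replicate 1 peak in the 4 loci, for peaks found in both lists (left of each pair) and in replicate 1 alone (right), with the median as a bar. The medians of shared peaks lie between 120.5 and 138.0 and those of the others between 71.0 and 80.0, and single unshared peaks reach 140.

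RUNX letters were more frequent at the sites of these 4 loci than over the list. Of the 56 shared peaks outside promoters, 24 held TGTGGT or TGCGGT on either strand, 42.9% (exact 95% binomial interval 29.7 to 56.8), against 23.2% of all 42117 shared peaks outside promoters. By locus the counts were 12 of 21 at Runx1, 6 of 20 at Runx2, 4 of 11 at Runx3 and 2 of 4 at Cbfb. Without Runx1 the share was 12 of 35, or 34.3%. Over all replicate 1 peaks outside promoters it was 81 of 254, 31.9%, against 22.4% of the list. By locus these were 32 of 84 at Runx1, 22 of 91 at Runx2, 23 of 64 at Runx3 and 4 of 15 at Cbfb. Runx2 thus lay near the list. At Runx1 the 12 shared sites with RUNX letters ran along the whole locus, with 3 upstream of the gene, 5 in the second intron, 1 in intron 5 and 3 downstream. Peaks are not replicates, neighbouring ones can share a hotspot, and 1 peak per hotspot gave 22 of 52, 42.3%.

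GATA letters, bound by factors such as GATA2 of blood progenitors, were in 11 of the 56 shared peaks, 19.6% (interval 10.2 to 32.4), against 9.16% of the list. Over all replicate 1 peaks outside promoters the share was 35 of 254, 13.8%, against 10.6% of the list. Of the 11, 6 were at Runx1, 4 at Runx2 and 1 at Runx3. RUNX letters stood together with ETS letters in 9 of the 56, against 6.07% of the list. They stood with GATA letters in 5 of the 56, against 2.15%, and with MYB letters in 10, against 9.75%. Higher shares of the single letters raise such counts by themselves, and an excess beyond them was not tested. The other families were near their background. ETS letters were in 28.6% against 27.1%, the PU.1-type ETS letters GAGGAA in 26.8% against 27.9%, and C/EBP letters in 12.5% against 12.7%. AP-1 letters (TGANTCA) were in 10.7% against 8.13%, MYB letters (AACTG or AACGG) in 39.3% against 41.5%, E-box letters (CAGCTG) in 8.93% against 10.6% and CTCF core letters in 28.6% against 32.2%. ETS and PU.1-type letters can overlap, as in GAGGAAGT, and such a stretch counts for both.

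**Figure D4:**
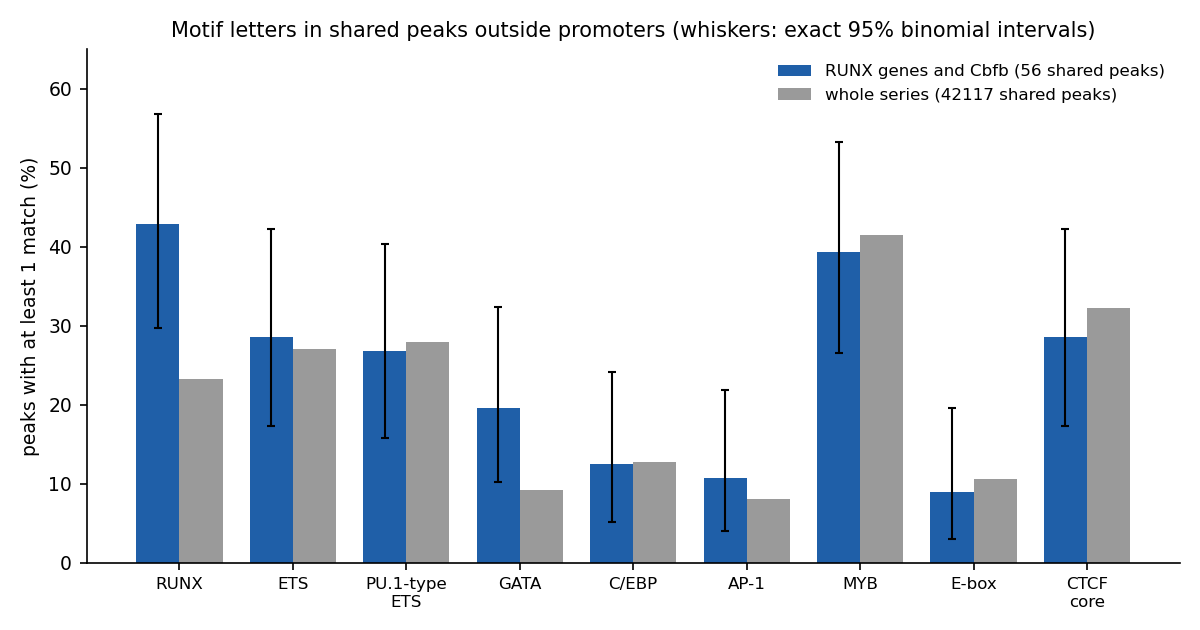
Percent of shared peaks outside promoters with at least 1 match to each motif's letters (y axis), at the RUNX genes and Cbfb (blue, 56 peaks) and over the whole list (grey, 42117 peaks), with exact 95% binomial intervals as whiskers. RUNX at 42.9% and GATA at 19.6% lie above the list's 23.2% and 9.16%. The whiskers count each peak as independent and make no allowance for the 9 families, so they are not a test.

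Counted against all protein-coding genes by the same windows, the RUNX genes held many sites and Cbfb a middling number. Shared peaks outside promoters numbered 21 at Runx1, 20 at Runx2, 11 at Runx3 and 4 at Cbfb, the 99.7th, 99.7th, 95th and 57.0th percentiles of 21755 genes, whose median was 3. Per 100 kb of window, which sets the length of the genes aside, the densities were 6.47 at Runx1, 4.78 at Runx2, 6.99 at Runx3 and 2.72 at Cbfb, the 89.7th, 78.2nd, 92.3rd and 52.6th percentiles around a median of 2.55. The order was therefore Runx3, Runx1, Runx2 and Cbfb by density and Runx1, Runx2, Runx3 and Cbfb by count, and with 1 list per replicate neighbours in either order cannot be told apart by a test. Counting every replicate 1 peak outside promoters, shared or not, Runx3 had 40.7 per 100 kb, the 99.3rd percentile. The genes nearest in their counts (Euclidean distance of log2 counts plus 1 in replicate 1, replicate 2 and shared) were Itpr2, Babam2 and Cux1 for Runx1. They were Cux1, Jazf1 and Acoxl for Runx2, and Pip5k1b, Atf6 and Hipk2 for Runx3. For Cbfb several genes had the same counts of 15, 4 and 4, of which 1700123O20Rik, 5730455P16Rik and AL607142.1 come first by name.

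**Figure D5:**
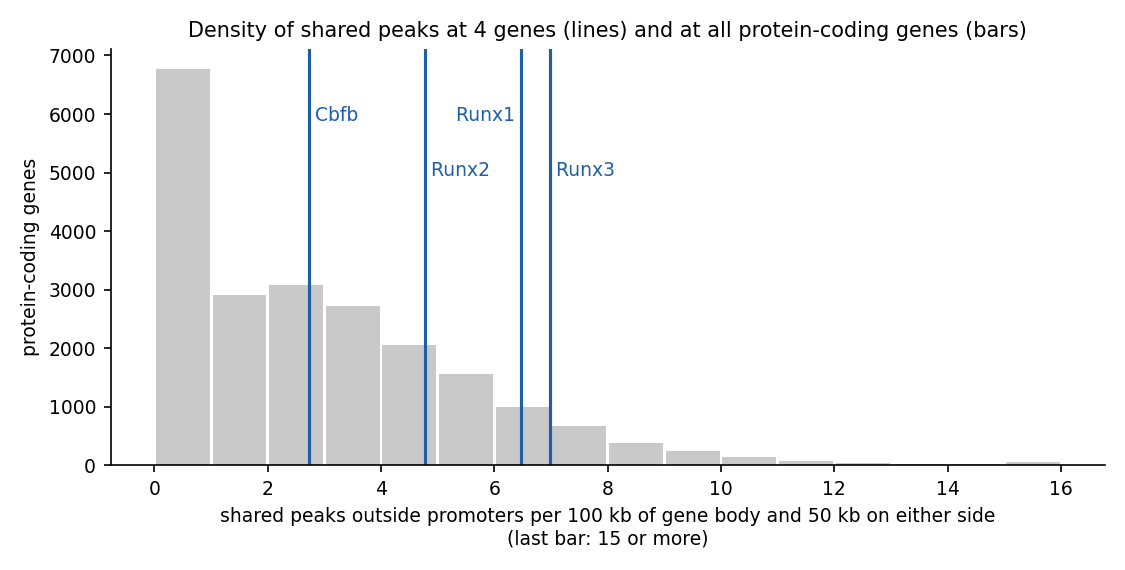
Number of protein-coding genes (y axis) by shared peaks outside promoters per 100 kb of gene body and 50 kb on either side (x axis, last bar 15 or more), with the 4 genes as lines. Runx3 at 6.99 and Runx1 at 6.47 lie in the upper tail, Runx2 at 4.78 between them and the bulk, and Cbfb at 2.72 beside the median of 2.55.

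The genes known to work with RUNX proteins were mostly open at their promoters. A shared promoter peak was present at 58.2% of all protein-coding genes, a replicate 1 peak at 71.1% and a replicate 2 peak at 58.8%. Of 17 partner transcription factors, 14 had one, with the highest ranks at Fos, Spi1, Cebpa and Ets2. Spi1, which makes the myeloid factor PU.1, scored 150 in replicate 1 and 94 in replicate 2, and Cebpa, a granulocyte factor, 148 in replicate 1 and 97 in replicate 2. The GATA factors of the erythroid and T cell lineages, Gata1 and Gata3, had promoter peaks in replicate 1 alone, with scores of 100 and 101, while Gata2 scored 138 in replicate 1 and 54 in replicate 2. Jun had peaks in both lists that did not overlap.

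Of 21 corepressors and coactivators, 19 had a shared promoter peak, led by Smarca4, Sin3a, Hdac1 and Cbfa2t2. Runx1t1, the ETO gene that fuses to RUNX1 in human t(8;21) leukaemia, had no promoter peak in either list. Its relatives Cbfa2t2 and Cbfa2t3 scored 149 and 128 in replicate 1, with 104 and 34 in replicate 2. Yap1 had a peak in replicate 1 alone, with a score of 58.

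Known target genes were set against the same background. Of 14 blood targets of RUNX1, 10 had a shared promoter peak, the highest at Spi1, Cebpa, Itga2b and Cdkn1a. Elane and Csf2 had one in replicate 1 alone, and Il3 in neither list. Of 9 skeletal targets of RUNX2, 3 had one, Col1a1, Spp1 and Alpl. Bglap, Col10a1 and Ibsp, genes of bone and growth plate cartilage, were among the 5 with no peak in either list. Of 12 lymphoid targets of RUNX3 and RUNX1, 3 had one, Zbtb7b, Il4 and Tbx21, and 7, Cd4, Cd8a and Cd8b1 among them, had no peak in either list.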

How the data were processed

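Nuclei of 4 libraries were treated with DNase I, and the libraries of each biological replicate were pooled before deposit, per the labels and text files deposited with the samples. The deposited peak score is a whole number per window of 150 bp, and the deposited hotspots carry a −log10 q value from 1.30 to 100. The assembly was mm10, per the labels. Aligner, peak caller, depth and score definition: not given in the sources used here. No scaling for depth could be checked. Repeated entries (48 and 5 in the lists of replicates 1 and 2) were merged, and the autosomes, X and Y were used. A promoter peak overlapped the 1 kb on either side of any transcript start of a protein-coding gene in GENCODE M21. Distal and proximal starts were told apart by the coding start of each transcript, and percentiles placed ties at their midpoint. All 4 genes, every promoter peak, for each gene the 5 highest shared peaks and the highest unshared one, all Runx1 peaks 22 to 26 kb past the distal coding start, and the highest and absent members of each list were to be named. Some list members are not reported here. The RUNX pair, the CTCF core letters and other sites of intron 6 were added after the values were seen. Members and lists were chosen with earlier results of these data known. Overlaps and motif positions were tested on simulated data, in which 100.0% of both were recovered. Python 3.11.15, pandas 2.3.3, scipy 1.17.1 and pysam 0.24.0 were used.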

Additional observations from a re-analysis of the deposited data

How the results depend on the processing

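Of 55 alternatives over 9 results, 2 reversed the result and 8 moved it past a set bound, and 45 stayed within it. The bound was 1.5 times for a count, the exact interval for a share and the SD over the 2 lists for a difference. The distal minus proximal difference in rank became -3.87 at Runx1 and -12.1 at Runx3 when the scores of all peaks within 1 kb were summed, and 1.52 at Runx1 with a promoter window of 2.5 kb. In replicate 2 the Runx1 order turned with that wider window. With the 1 kb window and either replicate left out, the difference ran from 3.53 to 6.42 at Runx1. It ran from -70.6 to -25.4 at Runx2 and from 3.50 to 6.75 at Runx3. The 12 shared peaks of the Cbfb locus became 5 and 21 with windows of 10 and 100 kb and 4 outside promoters. The 14 of Runx3 became 7 and 27 with those windows, and the 25 of Runx2 became 14 among peaks at or above the median score of each list. The shared share became 61.3% at equal list lengths. The RUNX share stayed between 31.9 and 42.3% in its alternatives, 2 of them chosen after seeing the data. The cause was not tested. No paired analysis was possible because each replicate has 1 pooled list and no test was run. Depth is unknown in both lists, so a site missing from one may lie below its reach.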

Other observations

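Within the Runx2 window, 3 shared sites near the gene's far end, 269.2, 273.9 and 284.6 kb past the distal start, had low scores in replicate 1, 87, 81 and 77, yet were also in replicate 2, with 20, 20 and 18. Low shared sites were not confined to this end. A shared peak upstream of Runx2 scored 88 in replicate 1 and 16 in replicate 2, and one downstream of it 92 and 22. Of the 3 sites near the far end, 2 hold CTCF core letters, against 32.2% of all shared peaks outside promoters. These letters were searched after sequences had been read, so the count supports nothing. At the other loci the lowest replicate 1 score of a shared peak was 102 at Runx1, 107 at Runx3 and 86 at Cbfb.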
